A study of Mus musculus with 6 samples.

Results

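Macrophages and related myeloid cells were followed through 35 genes in cultures of dispersed mouse islet cells, the cells of the pancreas that hold the insulin-producing beta cells. The islets came from male mice of the strain C57Bl/6N, and RNA was taken after 72 h of culture. The exoNOD group (3 arrays) was cultured with exosomes at 50 µg/ml; these are small membrane vesicles, here shed by CD4+CD25- T cells taken from NOD animals, which are prone to autoimmune diabetes. The control group (3 arrays) had no exosomes of any kind. The replicates were independent experiments with separate islet and exosome preparations, and the age of the mice is not given in the labels. The genes were listed by symbol, and 33 of the 35 were matched to a probe through RefSeq accessions. The brightest probe over the 6 arrays stood for its gene, and 30 of the 35 were among the 25780 genes tested in all. Cd68 and Clec7a were not matched, and their expression is not analysed here.

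Macrophages live in every islet, where they engulf debris and sample the blood and the products of beta cells. They carry receptors for the Fc part of antibodies and for microbial products, signal through small adaptor chains, and release lysosomal enzymes and complement proteins. Their survival depends on the receptor Csf1r, and their gene programme on the transcription factor PU.1, the product of Spi1.

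PU.1 binds short sites with the core GAGGAA, and the starts of myeloid genes often hold one close by. The sequences of 4 of the genes that the results turn on are shown for this reason, from 250 bases before to 50 bases after the start of the gene in RefSeq's annotation of GRCm38.p6, 5′ to 3′ along the gene's strand. Capitals mark GAGGAA or its reverse complement. The stretches are chr1:172475110-172475409 on the plus strand for Slamf9, chr17:35176003-35176302 on the minus strand for Aif1, chr7:128062390-128062689 on the plus strand for Itgam and chr1:170976022-170976321 on the minus strand for Fcgr2b.
Slamf9: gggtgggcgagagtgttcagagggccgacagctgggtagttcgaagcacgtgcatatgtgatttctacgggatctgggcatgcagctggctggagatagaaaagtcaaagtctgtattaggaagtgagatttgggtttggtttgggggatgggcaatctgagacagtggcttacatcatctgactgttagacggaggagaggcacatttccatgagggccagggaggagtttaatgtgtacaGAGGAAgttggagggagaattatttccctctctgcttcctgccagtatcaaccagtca
Aif1: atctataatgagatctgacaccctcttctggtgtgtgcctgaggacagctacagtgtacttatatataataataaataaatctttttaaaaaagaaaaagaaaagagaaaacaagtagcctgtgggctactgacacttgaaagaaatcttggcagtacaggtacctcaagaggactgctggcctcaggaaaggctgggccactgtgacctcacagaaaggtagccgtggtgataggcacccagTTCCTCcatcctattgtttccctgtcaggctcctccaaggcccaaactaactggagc
Itgam: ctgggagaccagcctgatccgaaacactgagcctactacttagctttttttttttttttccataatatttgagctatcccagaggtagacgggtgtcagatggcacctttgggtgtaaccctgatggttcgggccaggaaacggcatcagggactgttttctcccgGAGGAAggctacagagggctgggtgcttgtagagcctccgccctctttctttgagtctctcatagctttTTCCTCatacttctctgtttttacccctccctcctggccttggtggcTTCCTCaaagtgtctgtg
Fcgr2b: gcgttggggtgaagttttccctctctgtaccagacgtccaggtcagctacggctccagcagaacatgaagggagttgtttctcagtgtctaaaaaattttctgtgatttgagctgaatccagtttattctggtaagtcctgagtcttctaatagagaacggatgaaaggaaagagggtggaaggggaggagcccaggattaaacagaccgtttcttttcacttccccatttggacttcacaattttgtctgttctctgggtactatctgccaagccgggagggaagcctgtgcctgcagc

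Counting the start as base 1 and the base before it as base -1, the match began at base -8 in Slamf9 and at base -7 in Aif1. Itgam held 3 matches, at bases -84, -15 and 33. No match lay in the Fcgr2b stretch. The promoter table held 24 of the 35 genes, and 13 of these (54.2%) had the core on either strand in at least 1 stretch, beside 31.3% of the 27025 genes in the table. By stretch, 15 of 28 matched, beside 28.3% of all 32851. These are matches of letters, not measured sites. Genes that passed neither fit below also held the core. Among them were C1qb at base -30, Laptm5 at base -38, Fcgr1 at base -55 and Fcgr3 at bases -15 and -6 of its stretches. Adgre1 and Siglec1 have no entry in the table. The counts include Cd68 and Clec7a, which were not matched to a probe and both held the core.

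The level of a gene is the log2 of its processed signal minus the 75th percentile of its array, so a level of 0 is the brightness of that percentile. This percentile lay between 869 and 890 on exoNOD arrays and between 812 and 883 on control arrays. The median signal was 121, 140 and 129 on exoNOD arrays and 112, 117 and 112 on control arrays. Between 80.8% and 81.8% of probes were well above background on exoNOD arrays, against 78.1% to 81.6% on control arrays, and no spot was saturated. Differences were tested with limma across all genes, two-sided, with Benjamini-Hochberg adjusted p-values and a threshold of 0.05. The main fit had no block, and a second one had the replicate number as a block, since arrays of equal number deviated together.

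Most of the macrophage genes were measured in both groups. Of the 33 matched genes, 28 were well above background on all 6 arrays. Among them were Csf1r, the receptor that keeps macrophages alive, Adgre1, the F4/80 antigen of mouse tissue macrophages, and the 3 chains of complement C1q. Lyz2 was above background on 3 exoNOD and 2 control arrays and Siglec1 on 3 exoNOD and 1 control array, so both entered the test through the exoNOD arrays. The other 3 were not tested. Ccr2, the chemokine receptor of recruited monocytes, was above background on 1 exoNOD and 2 control arrays, the scavenger receptor Cd163 on 1 exoNOD and 0 control arrays, and Spi1 on 2 exoNOD and 2 control arrays.

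**Figure D1:**
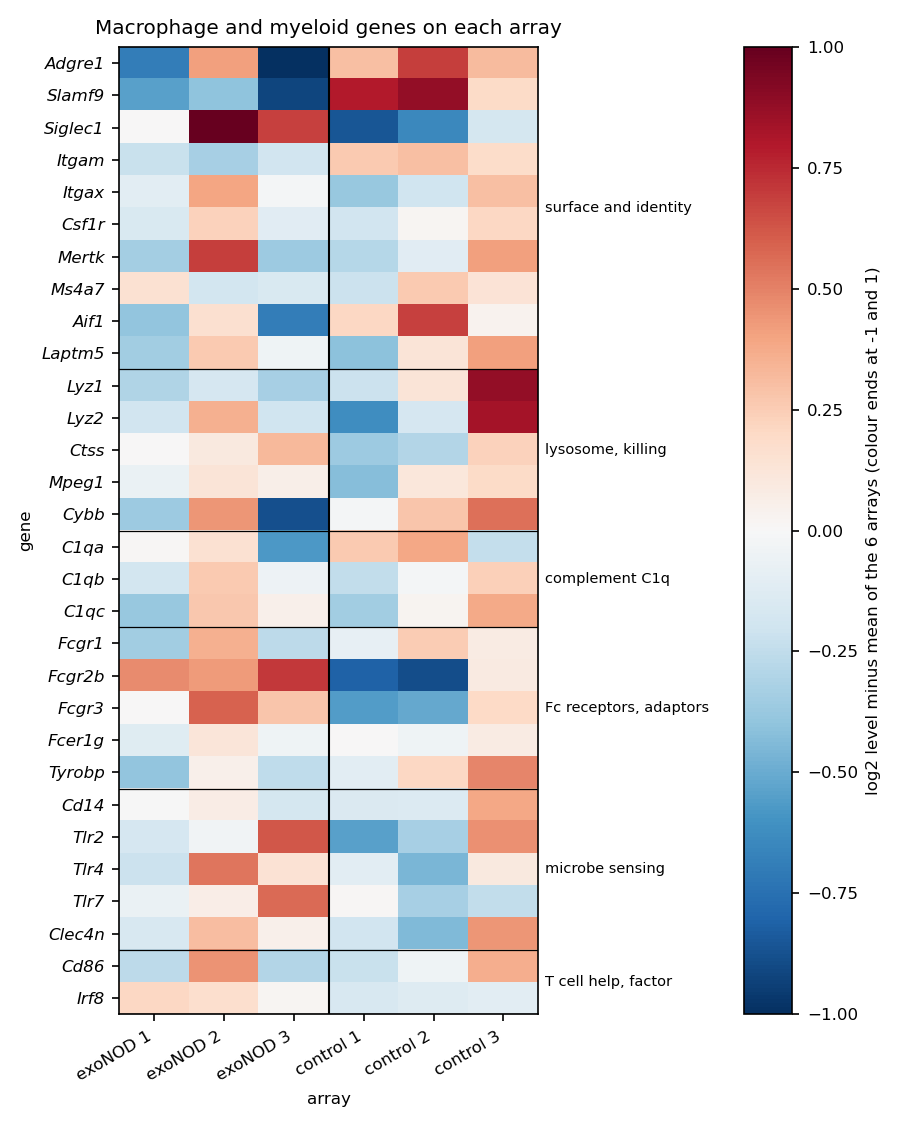
Log2 level of each of the 30 tested genes (rows, grouped by role) on each array (columns), as the difference from that gene's mean over the 6 arrays, exoNOD arrays on the left and control arrays on the right. Slamf9 was lower, and Fcgr2b and Siglec1 higher, on every exoNOD array than on any control array, as were Itgam (lower) and Irf8 (higher); the other genes overlap between the groups.

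The 30 tested genes lay on both sides of 0. Their median log2 change, exoNOD minus control, was -0.03 over the 30 genes, beside 0.04 over all genes tested. The change was above 0 for 12 of the 30, beside 55.4% of all genes. Its SD was 0.49 across the 30 genes, beside 0.34 across all genes, and 18 of the 30 (60%) lay within 0.3 of 0, beside 71.5% of all genes. The median of the 30 changes was -0.005 in replicate 1, 0.23 in replicate 2 and -0.34 in replicate 3. In bulk RNA, fewer cells of a type and less RNA per cell cannot be told apart.

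Without a block none of the 30 genes passed limma's threshold, beside 0.105% of all genes tested, and 8 of the 30 had an unadjusted p below 0.05, beside 16.7% of all genes. With the replicate block 6 of the 30 passed, beside 8.77% of all genes. Slamf9, Adgre1, Aif1 and Itgam were lower in exoNOD cells, beside 1.83% of all genes called lower. Fcgr2b and Siglec1 were higher, beside 6.94% called higher. The 2 higher genes are near the background share, and 1 of them, Siglec1, entered the test through the exoNOD arrays; no test over the group was made. The groups did not overlap for 3 higher genes (Fcgr2b, Siglec1 and Irf8), beside 14.6% of all genes, and for 2 lower genes (Slamf9 and Itgam), beside 7.78%. In the 3 pairs of equal replicate number, 6 of the 30 genes were higher in every pair, beside 29.0% of all genes, and 7 were lower in every pair, beside 22.1%.

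**Figure D2:**
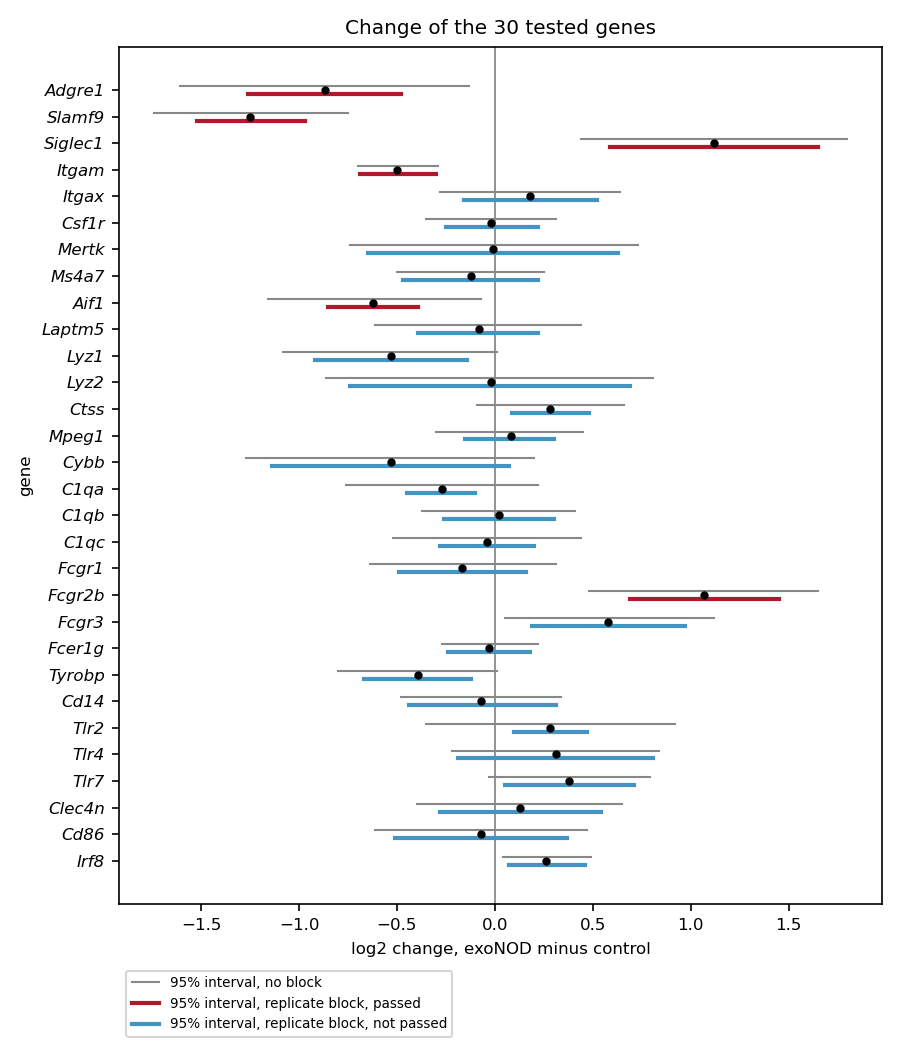
Log2 change, exoNOD minus control, of the 30 tested genes (points) with the 95% interval of the limma fit without a block (grey) and with the replicate block (coloured, red where the adjusted p passed 0.05). The 6 red genes lie on both sides of 0, 4 lower and 2 higher in exoNOD cells.

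Slamf9, a receptor of the SLAM family found on macrophages and dendritic cells, had the largest fall among the 30 genes. Its level was -2.98, -2.84 and -3.35 on exoNOD arrays, against -1.64, -1.56 and -2.24 on control arrays. Every exoNOD array was below every control array, and the differences within pairs were close to one another at -1.34, -1.29 and -1.11. The log2 change was -1.25 ± 0.22 (SE, n = 3 per group), a 2.37-fold higher mean in control cells, with an adjusted p of 0.0809 in limma without a block and 0.000778 with it. Without exoNOD replicate 1 the adjusted p without a block was 0.0381, and without control replicate 3 it was 0.0262. These were the only 2 of the 6 fits leaving out 1 array in which Slamf9 passed. In the fit without exoNOD replicate 1, the exoNOD and control arrays lay on different slides, as inferred from scan times. The stretch before its start, shown above, holds the GAGGAA core near the start, as do stretches of genes that did not pass. A link between the core and the change was not tested.

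Adgre1 had levels of -2.32, -1.22 and -2.65 on exoNOD arrays, against -1.33, -0.94 and -1.31 on control arrays. The exoNOD arrays were lower in each pair, with differences of -0.99, -0.28 and -1.34, but exoNOD replicate 2 was above control replicates 1 and 3. The log2 change of -0.87 ± 0.33 (SE, n = 3 per group) had an adjusted p of 0.257 in limma without a block and of 0.0155 with it. A second probe for Adgre1, also above background on all arrays, had a change of -0.10 ± 0.24, with an adjusted p of 0.703 with the block in a limma fit over all probes. The call thus rests on the brightest probe.

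Aif1 encodes Iba1, an actin-bundling protein of macrophages and microglia. Its level was -1.78, -1.23 and -2.08 on exoNOD arrays, against -1.18, -0.70 and -1.35 on control arrays. The groups overlapped, and each exoNOD array was lower than the control array of its number, with differences of -0.60, -0.53 and -0.72. The log2 change was -0.62 ± 0.24 (SE, n = 3 per group), with an adjusted p of 0.265 in limma without a block and 0.00642 with it.

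Itgam encodes CD11b, the integrin alpha chain shared by macrophages, monocytes and neutrophils. Its brightest probe had levels of 3.70, 3.59 and 3.73 on exoNOD arrays, against 4.18, 4.22 and 4.10 on control arrays, with no overlap. The log2 change was -0.50 ± 0.09 (SE, n = 3 per group), with an adjusted p of 0.0824 in limma without a block and 0.00882 with it. The gene's other 2 probes had changes of the opposite sign, 0.16 ± 0.16 and 0.50 ± 0.21, and did not pass (adjusted p of 0.445 and 0.103 with the block over all probes). These 2 probes were much dimmer. Their levels were -0.96 to -0.45 and -3.66 to -2.90 on exoNOD arrays, against -1.01 to -0.65 and -3.86 to -3.57 on control arrays. The mean of the 3 probes had a change of 0.06. The direction of Itgam therefore depends on the probe.

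Fcgr2b encodes the inhibitory Fc receptor, carried by macrophages and also by B lymphocytes. Its level was -2.69, -2.74 and -2.46 on exoNOD arrays, against -3.97, -4.05 and -3.07 on control arrays. All exoNOD arrays were above all control arrays, and control replicate 3 was the highest of its group. The mean was 2.09-fold higher in exoNOD cells (log2 change 1.07 ± 0.26, SE, n = 3 per group), with an adjusted p of 0.137 in limma without a block and 0.00518 with it. Of the 6 fits without a block that left out 1 array, only that without control replicate 3 passed (adjusted p = 0.026). All 10 tested B lymphocyte markers had a change above 0, beside 55.4% of all genes, with a median of 0.65, and 4 were called higher with the block (Cd79b, Ms4a1, Blnk and Cr2), beside 6.94% of all genes. Of the 10, 8 were above background on all 6 arrays. The summed signal of the list, in units of the array's 75th percentile, was 4.35 to 4.89 on exoNOD arrays and 3.69 to 3.72 on control arrays. Cd22 was the brightest marker of the list on every array, and its change was 0.12. Ms4a1, which encodes CD20, was above background on 3 exoNOD and 0 control arrays and Blk, a B cell kinase, on 3 exoNOD and 1 control array, so both entered the test through the exoNOD arrays. Changes above 0 were not particular to B lymphocyte markers: 10 of 11 tested T lymphocyte markers had one, with a median of 0.35. The part of B lymphocyte RNA in the Fcgr2b result was not tested.

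Siglec1 encodes sialoadhesin, a sialic acid receptor of macrophages that interferon is known to induce. Its level was -5.20, -4.20 and -4.52 on exoNOD arrays, against -6.06, -5.85 and -5.38 on control arrays. Only 1 control array was above background, and the gene entered the test through the exoNOD arrays, where it is high. The measured log2 change was 1.12 ± 0.30 (SE, n = 3 per group), with an adjusted p of 0.174 in limma without a block and 0.0201 with it. Of the 6 fits without a block that left out 1 array, only that without exoNOD replicate 1 passed (1.4, adjusted p = 0.0347). In that fit the exoNOD and control arrays lay on different inferred slides. On the inferred slide that held exoNOD replicate 1 and all controls, the difference was 0.56. A second probe had a change of 0.33 ± 0.25 and did not pass with the block (adjusted p = 0.415).

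Leaving out the pair of replicate 2 ended the calls of Aif1, Fcgr2b and Siglec1 with the block (adjusted p of 0.0554, 0.0866 and 0.106 in limma), with log2 changes of -0.66, 0.95 and 0.86, against -0.62, 1.07 and 1.12 with all pairs, while Slamf9, Adgre1 and Itgam kept theirs. On that same slide, exoNOD replicate 1 against the 3 controls differed by -1.17 for Slamf9, -1.12 for Adgre1, -0.70 for Aif1, -0.47 for Itgam and 1.01 for Fcgr2b. No control lay on the other slide, so exoNOD replicates 2 and 3 have no comparison within theirs. With normexp background correction the falls were smaller for Slamf9 (-0.32), Adgre1 (-0.06) and Aif1 (-0.06) and larger for Itgam (-0.72), Fcgr2b was at 1.03 and Siglec1 at 1.00, and the median over all genes moved to 0.35. None of the 6 passed in that fit, which had no block.

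**Figure D3:**
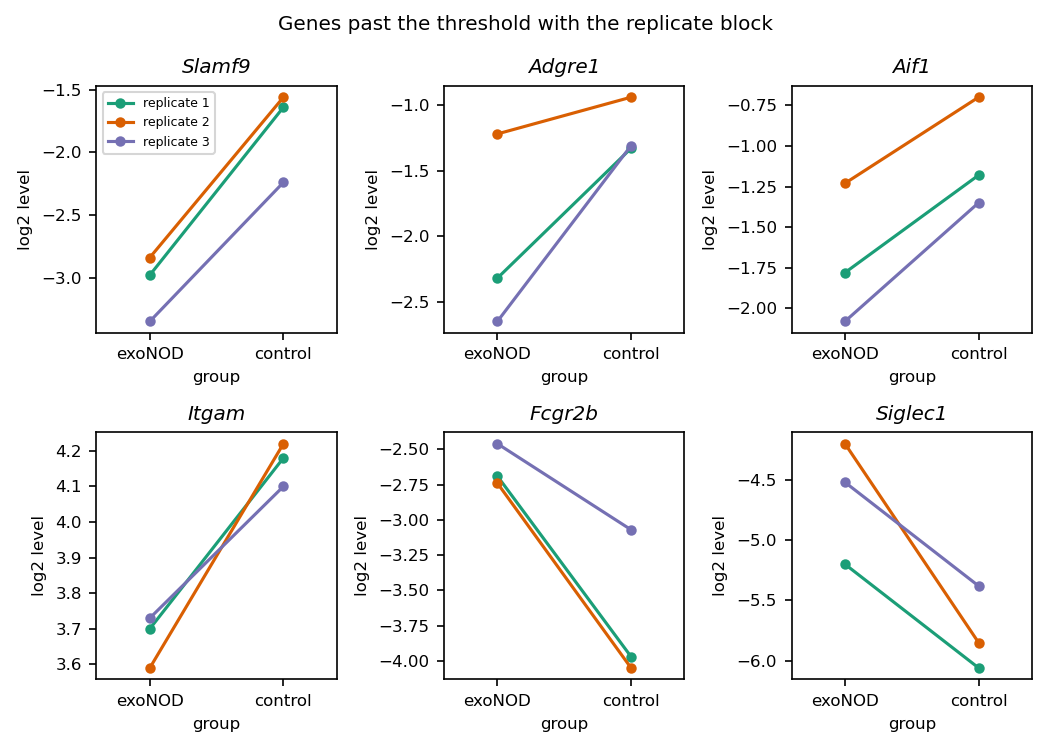
Log2 level of the 6 genes that passed with the replicate block, with exoNOD arrays on the left and control arrays on the right of each panel; each line joins the arrays of 1 replicate number. All lines of Slamf9, Adgre1, Aif1 and Itgam run upward to the control and all lines of Fcgr2b and Siglec1 run downward to it.

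**Figure D4:**
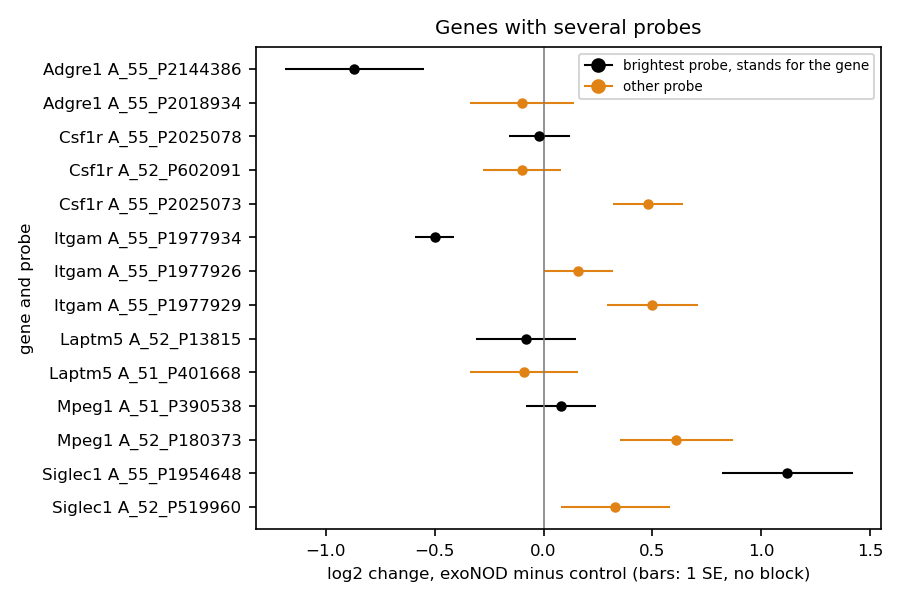
Log2 change, exoNOD minus control, with 1 SE (limma without a block, all probes), of each probe of the genes with more than 1 tested probe. The brightest probe (black) and the other probes (orange) lie on opposite sides of 0 for Itgam and, for 1 of its probes, Csf1r; for Adgre1 (-0.87 and -0.10), Siglec1 (1.12 and 0.33) and Mpeg1 (0.08 and 0.61) they differ in size.

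The remaining surface markers did not pass either fit. Csf1r had a log2 change of -0.02, with a 95% interval of -0.35 to 0.31 without a block. Its second probe changed by 0.48 and passed with the block over all probes (adjusted p = 0.0237 in limma), while the third had a change of -0.10. Itgax, which encodes the integrin chain CD11c of dendritic cells and many macrophages, had levels of -0.85, -0.35 and -0.76 on exoNOD arrays, against -1.12, -0.94 and -0.44 on control arrays, a change of 0.18. Mertk, a receptor for the uptake of dying cells, had a change of -0.01 with an interval of -0.74 to 0.73, which holds changes in either direction. Ms4a7, a tetraspan membrane protein of macrophages, had a change of -0.12, and Laptm5, a lysosomal membrane protein of blood cells, one of -0.08, with a second probe at -0.09.

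Of the lysosomal and killing genes, none passed. Lyz1 and Lyz2 encode near-identical lysozymes, and the Lyz1 probe may read both, so their split is uncertain. Over the 6 arrays the Lyz2 probe had signals of only 11.3 to 29.6, against 1309.6 to 2760.7 for the Lyz1 probe. Lyz2 was thus read near background. Lyz1 had levels of 0.59, 0.72 and 0.56 on exoNOD arrays, against 0.67, 1.02 and 1.77 on control arrays, and 1 control array set most of the difference of -0.53. Without control replicate 3 that value was -0.22. Lyz2 had a change of -0.02, with an interval of -0.86 to 0.81 without a block. The cathepsin Ctss, a protease that trims the invariant chain of MHC class II, was higher in each pair by 0.37, 0.39 and 0.09, with an adjusted p of 0.073 in limma with the block. Mpeg1, a pore-forming protein of phagocytes, had a change of 0.08, whereas its second probe changed by 0.61 and passed with the block (adjusted p = 0.0145). Cybb, the catalytic subunit of the phagocyte NADPH oxidase, had a change of -0.53 ± 0.32 (SE, n = 3 per group), with differences of -0.34, 0.16 and -1.42 in the pairs.

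The C1q chains are made together by tissue macrophages and start the classical complement pathway. C1qa was lower in every pair, by values of -0.24, -0.23 and -0.34, and had an adjusted p of 0.0591 in limma with the block. The change was 0.02 for C1qb and -0.04 for C1qc, with intervals of -0.37 to 0.41 and of -0.52 to 0.44 without a block.

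Among the Fc receptors and their adaptors, Fcgr3, an activating receptor whose outer part closely resembles that of Fcgr2b, lay in the same direction as Fcgr2b. Its level was -2.16, -1.57 and -1.88 on exoNOD arrays, against -2.72, -2.67 and -1.96 on control arrays, and the groups overlapped through control replicate 3. The log2 change was 0.58 ± 0.23 (SE, n = 3 per group), with an adjusted p of 0.277 in limma without a block and 0.0661 with it. Fcgr1, the high-affinity receptor, had a change of -0.17, and Fcer1g, the signalling chain that activating Fc receptors share, one of -0.03 with an interval of -0.27 to 0.22. Tyrobp, the adaptor DAP12, had levels of -1.31, -0.87 and -1.17 on exoNOD arrays, against -1.02, -0.71 and -0.43 on control arrays, and its change of -0.39 did not pass (adjusted p of 0.306 without a block and 0.0722 with it).

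The sensors of microbial products did not pass either. Cd14, the lipopolysaccharide co-receptor, had a change of -0.07, and the lipopolysaccharide receptor Tlr4 one of 0.31. Tlr2, the receptor for bacterial lipoproteins, was higher in each pair by 0.37, 0.31 and 0.17, with an adjusted p of 0.0636 in limma with the block. Tlr7, a sensor of single-stranded RNA, had a change of 0.38, and Clec4n, the fungal receptor Dectin-2, one of 0.13. Cd86, a costimulator of T lymphocytes, had a change of -0.07. Irf8, a transcription factor of monocytes, dendritic cells and B lymphocytes, had levels of 0.71, 0.67 and 0.52 on exoNOD arrays, against 0.34, 0.37 and 0.40 on control arrays, with no overlap. Its change of 0.26 had an adjusted p of 0.261 without a block and 0.0886 with it.

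Other genes of the same pathways were described from lists. No gene in any of these lists passed limma's threshold without a block, and 0 to 6 genes a list had an unadjusted p below 0.05. The counts called with the replicate block follow, to be read beside the 6.94% of all genes called higher and the 1.83% called lower. Of 8 tested colony stimulating factor and receptor genes 3 were higher: Csf1, the ligand of Csf1r (0.30, adjusted p = 0.0441), and Csf2rb and Csf2rb2, near-identical receptor chains whose split is uncertain (0.89 and 0.77). Of 13 Toll-like receptor genes and partners 1 was higher, Tlr3, a sensor of double-stranded RNA (0.51, adjusted p = 0.0347). None of 4 NADPH oxidase subunits passed. In the list of ITAM and Fc receptor signalling 1 of 15 genes was higher, the inhibitory lectin receptor Clec4a2 (0.73, adjusted p = 0.00494). On the inferred slide that held exoNOD replicate 1 and all controls, the differences were smaller. They were 0.15 for Csf1, 0.44 for Csf2rb, 0.42 for Csf2rb2, 0.26 for Tlr3 and 0.24 for Clec4a2.

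Of 11 inhibitory myeloid receptors and Siglecs 2 were higher, Cd300a (1.30, adjusted p of 0.0824 without a block and 0.00189 with it) and the collagen receptor Lair1 (0.64, adjusted p = 0.0348 with the block). Cd300a, an inhibitory lipid receptor, had levels of -0.12, 0.86 and 0.86 on exoNOD arrays, against -0.81, -0.81 and -0.69 on control arrays, with no overlap. On the slide of exoNOD replicate 1 and all controls, the difference was 0.65 for Cd300a and 0.04 for Lair1.

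The 13 tested genes of tissue macrophages and of the TAM receptors, to which Mertk belongs, moved both ways, 3 higher and 2 lower with the block. Mrc1, the mannose receptor, had levels of -4.28, -3.46 and -3.57 on exoNOD arrays, against -6.11, -6.45 and -5.34 on control arrays, and was above background on 3 exoNOD and 1 control array. It entered the test through the exoNOD arrays, where it is high, and its measured log2 change of 2.20 ± 0.33 (SE, n = 3 per group; adjusted p of 0.0602 in limma without a block and 0.00169 with it) is set against controls mostly not above background. The fractalkine receptor Cx3cr1 had levels of -4.15, -3.66 and -4.17 on exoNOD arrays, against -2.72, -2.48 and -3.48 on control arrays, a change of -1.11 with an adjusted p of 0.145 without a block and 0.00472 with it. Gas6, a ligand of the TAM receptors, changed by -0.77 (adjusted p = 0.0019 with the block) and the receptor Axl by 0.60 (adjusted p = 0.022). The other gene called higher was Pros1, with a change of 0.77 (adjusted p = 0.0108 in limma with the block). On the slide of exoNOD replicate 1 and all controls, Mrc1 differed by 1.69 and Cx3cr1 by -1.26. Gas6 differed there by -0.69, Axl by 0.23 and Pros1 by 0.41.

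Of 11 myeloid transcription factors, Runx1 was higher (0.73, adjusted p = 0.0328 with the block) and the liver X receptor Nr1h3 lower (-0.30, adjusted p = 0.0412). Of 12 leukocyte genes of all lineages, 9 had a change above 0, beside 55.4% of all genes, with a median of 0.22, and 1 passed, the actin regulator Coro1a (-0.37, adjusted p = 0.0296 with the block). On the slide of exoNOD replicate 1 and all controls, the differences were 0.50 for Runx1, -0.09 for Nr1h3 and -0.43 for Coro1a. Markers of other cells the preparation could hold were counted the same way. With the block, 1 of 7 dendritic cell markers, 0 of 5 neutrophil and monocyte markers and 3 of 11 T lymphocyte markers were higher and none lower. Changes above 0 were found for 6, 4 and 10 of them, beside 55.4% of all genes, with medians of 0.17, 0.29 and 0.35. Their summed signals, in units of the 75th percentile, were 0.654 to 0.889, 7.22 to 11.6 and 14.9 to 19.4 on exoNOD arrays, against 0.618 to 0.687, 6.08 to 8.87 and 14.8 to 19.7 on control arrays. Of 12 listed neutrophil and monocyte markers 5 were tested, and their sum was nearly all Elane. Elane had levels of 2.82, 3.49 and 3.21 on exoNOD arrays, against 3.12, 2.56 and 2.80 on control arrays. The other tested markers of that list lay at -3.29 or lower. Cd3e and Cd4 were the brightest T lymphocyte markers on every array. None of 6 islet endocrine markers passed, with a median change of -0.10, and of 14 markers of other pancreatic cells 4 were higher and 1 lower. The part of these cells in the results was not tested.

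**Figure D5:**
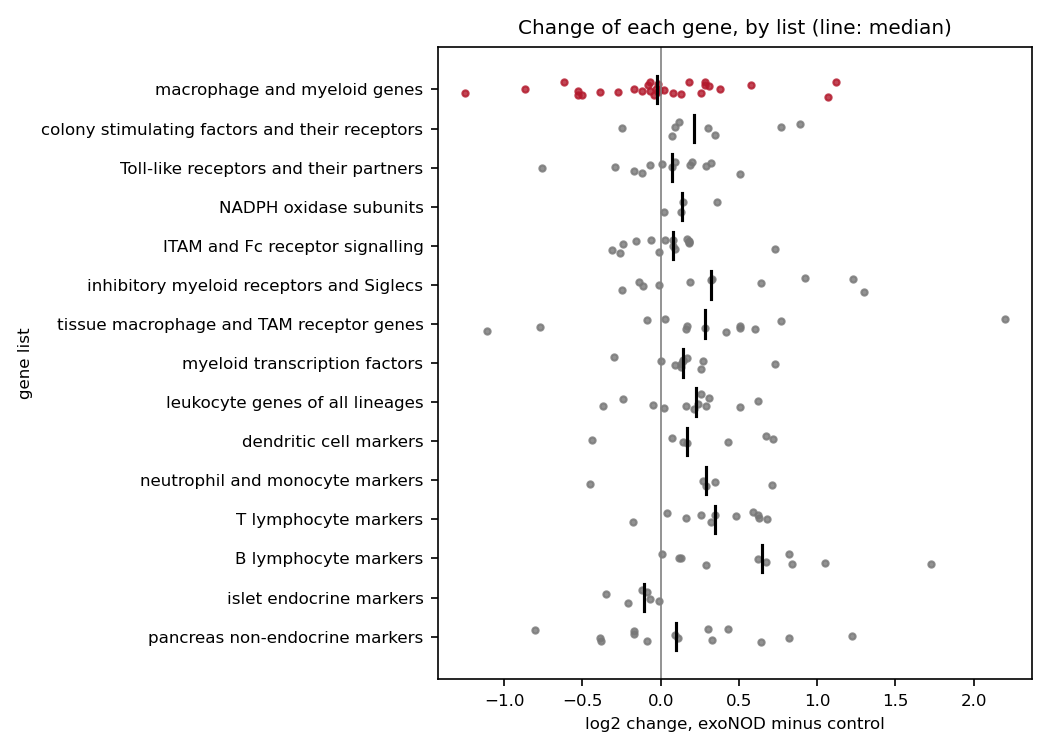
Log2 change, exoNOD minus control (limma without a block), of each tested gene (points) by list, with the list's median as a line. The macrophage and myeloid genes (red, top row) spread from -1.25 to 1.12 around a median of -0.03, while the B lymphocyte markers have a median of 0.65 and no gene below 0. The T lymphocyte markers also lie mostly above 0, with a median of 0.35.

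Ccl2, the chemokine that attracts monocytes through Ccr2, changed by 2.11 ± 0.52 (SE, n = 3 per group), with an adjusted p of 0.15 in limma without a block and 0.00127 with it. Ccr2 itself was not tested, as given above. Chil3, a chitinase-like protein of activated mouse macrophages, was chosen after its values were seen; its change was 1.46 ± 0.16, with an adjusted p of 0.0288 without a block, and the mean was 2.75-fold higher in exoNOD cells. Beside these, the 30 tested macrophage and myeloid genes had log2 changes from -1.25 for Slamf9 to 1.12 for Siglec1. Their median was -0.03, and 12 of the 30 lay above 0, beside 55.4% of all genes.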

How the data were processed

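RNA of 3 exoNOD and 3 control cultures was measured on 1-colour (Cy3) Agilent arrays. The deposited array files were written by Agilent Feature Extraction 11.0.1.1, per the file headers. The processed signal, an intensity, was background-corrected within each array by the authors' scanner software, per the file headers. Deposited flags, which are other values of 0 or 1, mark spots as above background, saturated or uneven. The authors' deposited table holds log2 values of 31766 probes with a column median of 7.92; across probes each column had a correlation of at least 0.9998 with its own array. Those values differed from quantile-normalized processed signals by a median of 0.00185 to 0.00326.

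Here the 75th percentile of each array was subtracted from the log2 processed signal. Uneven spots were left out (0.00232% to 0.0279% of spots) and spots of a probe averaged. The filter required every array of either group to be well above background, which kept 31065 of 39429 probes. RefSeq accessions named 27234 probes, and 17252 of the 25780 genes tested carried a symbol. The test was limma 3.58.1 (lmFit and eBayes with a trend) in R 4.3.3, with files read by data.table (version 1.17.8), and was tested on simulated data. Precision is limited by the number of arrays.

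The labels state no pairing. Across genes, deviations from the group means correlated at 0.366, 0.281 and 0.48 for equal replicate numbers, against -0.341 to 0.009 for unequal ones, and equal numbers were therefore taken as pairs. Slide was inferred from scan times. Alternatives were the replicate block, normexp (offset 50, on the median spot signal in place of the mean), quantile and median scaling, the authors' values, other filters on dim probes, the mean of a gene's probes, slide as a block, and leaving out arrays or pairs. The other probes of a gene were added after seeing the data.

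The genes and lists were chosen with earlier results of these data known. All 35 genes are named, with up to 4 genes of each pathway list by lowest unadjusted p. Ccl2, Chil3, Pros1, Elane and the named B and T lymphocyte markers fall outside this rule and were chosen after their values were seen. Sequences are from RefSeq.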

Additional observations from a re-analysis of the deposited data

How the results depend on the processing

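The replicate block raised the number of all genes past the threshold to 2260, against 27 without it, and that of the 35 genes to 6, against 0. With the block, quantile normalization gave 1196 and 6, and the authors' values 1101 and 5 (Siglec1 did not pass). Without the block, all genes past the threshold numbered 156 with normexp, 13 with median scaling, and 0 with the authors' values (3842 at an unadjusted p below 0.05), no filter, or slide as a block (930 at an unadjusted p below 0.05), and no macrophage or myeloid gene passed in these. Leaving out 1 array gave 0 to 1272 genes and 0 to 3 of the 35, the highest without exoNOD replicate 1 (Itgam, Slamf9 and Siglec1), and 2 without control replicate 3. Leaving out a pair with the block gave 521 to 4164 genes and 3 to 10 of the 35, the highest without replicate 1 (with Lyz1, Tyrobp, Fcgr3 and Tlr7 in addition to the 6) and the lowest without replicate 2. Without replicate 3 the counts were 1738 and 7. The highest counts for arrays and for pairs both came from fits without exoNOD replicate 1. In these fits the exoNOD and control arrays lay on different inferred slides, so group and slide cannot be told apart. Their median change lay between -0.155 and 0.124 without single arrays and between -0.184 and 0.168 without pairs, and the cause was not tested.

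Directions of the following genes turned. By the brightest probe and with all arrays, only Itgam among them was called, and only with the block. The second probes of Csf1r (0.48) and Mpeg1 (0.61) were also called with the block over all probes. With the authors' values Csf1r was at 0.007 and C1qb at -0.04 with or without the block, and with quantile normalization 0.01 and -0.039. The mean of all probes gave Itgam 0.056 and Csf1r 0.12. Median scaling gave C1qb -0.12, Clec4n -0.014 and Mpeg1 -0.065, with the median of all genes at -0.106. Normexp gave Lyz2 0.75, Cd14 0.48, Fcgr1 0.49, Fcer1g 0.016, Ms4a7 0.22, Mpeg1 -0.067, Laptm5 0.36, Mertk 0.78, Cd86 0.5 and Cybb 0.57, with the median of all genes at 0.349. Slide as a block gave Itgax -0.019, C1qb -0.18, Ms4a7 0.093, Clec4n -0.1, Mpeg1 -0.025, Tlr2 -0.03 and Tlr4 -0.062. The other probes gave Itgam 0.16 and 0.5 and Csf1r 0.48. Leaving out arrays gave ranges of -0.14 to 0.081 for Csf1r, -0.34 to 0.38 for Lyz2, -0.16 to 0.11 for Cd14, -0.092 to 0.025 for Fcer1g, -0.11 to 0.14 for C1qb, -0.23 to 0.14 for C1qc, -0.061 to 0.38 for Clec4n, -0.12 to 0.19 for Mpeg1, -0.31 to 0.097 for Laptm5, -0.35 to 0.2 for Mertk and -0.31 to 0.092 for Cd86. Leaving out pairs with the block gave -0.026 to 0.43 for Itgax, -0.14 to 0.13 for Csf1r, -0.3 to 0.48 for Lyz2, -0.21 to 0.18 for Cd14, -0.12 to 0.019 for Fcer1g, -0.11 to 0.17 for C1qb, -0.18 to 0.11 for C1qc, -0.37 to 0.038 for Ms4a7, -0.18 to 0.39 for Clec4n, -0.067 to 0.18 for Mpeg1, -0.19 to 0.095 for Laptm5, -0.41 to 0.38 for Mertk, -0.35 to 0.22 for Cd86 and -0.032 to 0.52 for Tlr4. Within these ranges C1qb was at -0.005 and Mertk at 0.014 without replicate 1, and Fcer1g at 0.017 without replicate 3.

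Slamf9, Adgre1, Aif1, Fcgr2b and Siglec1 kept their direction under every alternative run, and passed in 8 of 20, 6 of 21, 5 of 20, 6 of 20 and 5 of 21 of them. Their adjusted p in limma ran between 8.24e-10 and 0.927 for Slamf9, 7.62e-06 and 1 for Adgre1, 0.000652 and 1 for Aif1, 2.57e-06 and 1 for Fcgr2b, and 0.00118 and 1 for Siglec1.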
